A study of Mus musculus with 6 samples.

Results

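The replication-dependent histone genes encode the H1, H2A, H2B, H3 and H4 proteins that package newly replicated DNA. They were taken as every row of the deposited count table whose symbol is H2ac, H2bc, H3c or H4c followed by a number, or one of H1f1 to H1f5. This gave 56 of 55401 gene rows, and all 56 passed the filter on low counts, which kept 17573 rows in all. They comprise 5 linker histone (H1), 15 H2A, 14 H2B, 12 H3 and 10 H4 genes, of which H2ac14 is a pseudogene in RefSeq. The choice of genes used only their names.

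RNA labelled with 4-thiouridine (4sU), a uridine analogue that marks RNA made while it is present, was measured in 6 libraries of 129/Ola mouse embryonic stem cells in LIF medium. Controls were 3 libraries with the treatment label AID 0h and the genotype label WT, and 3 depleted libraries came from cells labelled ZFP207 degradation after 5 h with auxin (IAA), which sends a protein carrying an auxin-inducible degron to the proteasome. The controls were taken as the degron line without IAA, because their titles name the degron cells. Cells without the degron but with IAA were not analysed here, which means that effects of IAA and of losing ZFP207 cannot be told apart. Neither the number of clones nor the 4sU pulse length, strand setting, RNA selection or any spike-in is given in the sources used here. Libraries held 14336811 to 25916628 counts, and the histone genes took 0.219 to 0.532% of them. The 9 embryonic stem cell markers were all detected, with summed levels of 3735 to 4506 CPM (counts after TMM scaling to a common library total). Those of fibroblasts summed to 2.99 to 10.9 CPM, of primitive endoderm to 1.82 to 7.14 CPM and of trophoblast to 5.92 to 15.1 CPM, with Col3a1, Lum, Dcn, Cdx2 and Elf5 at 0. All values are relative to the other RNAs of a library and cannot show whether labelled RNA as a whole changed, and in such bulk samples fewer cells in S phase and less RNA per cell cannot be told apart.

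Replication-dependent histone genes lie in clusters, lack introns and are transcribed mainly in S phase at histone locus bodies, where NPAT and FLASH (encoded by Casp8ap2) act. Their mRNAs usually end in a stem-loop in place of a poly(A) tail, which the stem-loop binding protein SLBP holds and the U7 snRNP, with its Lsm10 and Lsm11 subunits, helps to cleave. ZFP207, also named BuGZ, is a zinc finger protein of the spindle and kinetochore. The series examines how it acts on U1 snRNP, which recognises 5' splice sites. Genes without introns offer a view of transcripts that need no splicing.

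Within the chromosome 3 cluster lie duplicated genes that bear on how the counts can be read. H3c14 (ENSMUSG00000093769.4, chromosome 3, 96246685 to 96247348) and H3c15 (ENSMUSG00000081058.5, 96238479 to 96239127) lie as mirror-image copies with H2ac18 (ENSMUSG00000064220.6, 96245497 to 96246052) and H2ac19 (ENSMUSG00000063954.7, 96239779 to 96240374) between them. The 250 bases before the start of H3c14 and H3c15, from RefSeq on GRCm38.p6 (mm10), were identical at 235 positions once aligned (94.0%), with one unbroken run of 231 bases shared. H2ac18 and H2ac19 were identical at 206 (82.4%), with a run of 169 bases. These 4 windows are shown because the duplication carries through them, and capitals mark the longest run shared by the copies.
H3c14, chr3:96246435-96246684, plus strand: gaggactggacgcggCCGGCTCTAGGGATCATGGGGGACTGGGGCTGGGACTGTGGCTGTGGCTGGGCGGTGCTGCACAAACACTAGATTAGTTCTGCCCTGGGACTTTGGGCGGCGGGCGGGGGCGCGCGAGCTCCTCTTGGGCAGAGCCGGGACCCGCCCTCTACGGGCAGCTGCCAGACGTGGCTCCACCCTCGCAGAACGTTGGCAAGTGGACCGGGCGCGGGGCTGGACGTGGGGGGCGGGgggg
H3c15, chr3:96239128-96239377, minus strand: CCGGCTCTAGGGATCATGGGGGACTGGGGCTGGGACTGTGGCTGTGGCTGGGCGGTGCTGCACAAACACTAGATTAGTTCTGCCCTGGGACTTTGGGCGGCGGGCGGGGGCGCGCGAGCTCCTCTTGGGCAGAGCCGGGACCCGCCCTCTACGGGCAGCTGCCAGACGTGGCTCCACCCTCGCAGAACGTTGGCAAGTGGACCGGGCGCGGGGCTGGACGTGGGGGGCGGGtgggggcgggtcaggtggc
H2ac18, chr3:96245247-96245496, plus strand: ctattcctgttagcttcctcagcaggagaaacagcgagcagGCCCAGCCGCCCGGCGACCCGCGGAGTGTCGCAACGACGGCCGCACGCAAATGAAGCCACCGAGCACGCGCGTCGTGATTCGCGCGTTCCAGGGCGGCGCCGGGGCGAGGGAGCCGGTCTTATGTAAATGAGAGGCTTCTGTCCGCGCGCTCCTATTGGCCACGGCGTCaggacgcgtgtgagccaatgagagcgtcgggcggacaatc
H2ac19, chr3:96240375-96240624, minus strand: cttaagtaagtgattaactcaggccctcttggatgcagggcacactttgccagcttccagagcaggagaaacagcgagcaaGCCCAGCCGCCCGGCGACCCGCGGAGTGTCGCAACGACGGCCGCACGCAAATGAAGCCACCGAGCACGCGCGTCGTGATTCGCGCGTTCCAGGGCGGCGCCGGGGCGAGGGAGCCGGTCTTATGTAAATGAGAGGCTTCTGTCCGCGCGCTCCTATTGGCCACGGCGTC

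Among all pairs of the 50 histone genes whose window was given, each read on its own strand, H4c11 with H4c12 was the other close pair. It had 227 identical positions (90.8%), and every other pair lay at or below 68.4%. Divergent H2A and H2B partners, with starts 164 to 281 bases apart, have windows that partly cover the same DNA on opposite strands. Reading each window on its own gene's strand leaves that overlap out. Apart from these close or overlapping pairs, the windows differ in sequence but share short elements. The letters CCAAT, on either strand, were in windows of 42 of 50 genes (84.0%) against 33.8% of all 32851 RefSeq windows of this length. The histone shares count genes, while those of all windows count single windows. H2bc6 had more windows than the other genes and counted where any of them matched. TATAAA was in 24 (48.0%) against 12.4%. The octamer ATTTGCAT, the element bound by OCT1 in H2B promoters, was in 13 (26.0%) against 1.60%. These were 6 of 14 H2A and 7 of 12 H2B genes, and 0 of the H1, H3 and H4 genes. By class, CCAAT was in 5 of 5 H1, 14 of 14 H2A, 12 of 12 H2B, 8 of 10 H3 and 3 of 9 H4 genes. Because the windows of divergent partners overlap and matches were read on either strand, a single site can count for both genes. The octamer was in both windows of H2ac1 and H2bc1, of H2ac8 and H2bc8, and of H2ac12 and H2bc12. The shares of windows are therefore not counts of separate sites. A match is a run of letters and was not tested as a binding site. The windows of the other 4 genes that passed the paired test below are shown with capitals on these 3 elements, read on either strand.
H2bc18, chr3:96269450-96269699, plus strand: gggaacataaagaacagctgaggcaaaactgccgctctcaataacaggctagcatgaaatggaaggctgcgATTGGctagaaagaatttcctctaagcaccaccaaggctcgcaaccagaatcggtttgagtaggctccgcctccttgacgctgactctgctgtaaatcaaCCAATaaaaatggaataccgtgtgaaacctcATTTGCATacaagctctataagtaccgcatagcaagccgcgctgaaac
H3c13, chr3:96268404-96268653, plus strand: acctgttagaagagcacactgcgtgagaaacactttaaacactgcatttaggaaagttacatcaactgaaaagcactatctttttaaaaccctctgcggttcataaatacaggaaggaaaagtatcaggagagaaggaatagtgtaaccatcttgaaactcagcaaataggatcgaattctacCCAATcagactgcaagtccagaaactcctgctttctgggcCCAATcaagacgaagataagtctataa
H3c8, chr13:23535168-23535417, plus strand: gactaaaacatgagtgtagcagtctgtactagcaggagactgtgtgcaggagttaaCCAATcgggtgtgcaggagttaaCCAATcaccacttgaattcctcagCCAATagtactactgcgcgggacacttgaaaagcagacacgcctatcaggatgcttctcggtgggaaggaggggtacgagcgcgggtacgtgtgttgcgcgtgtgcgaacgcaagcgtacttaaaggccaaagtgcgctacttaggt
H4c4, chr13:23581318-23581567, plus strand: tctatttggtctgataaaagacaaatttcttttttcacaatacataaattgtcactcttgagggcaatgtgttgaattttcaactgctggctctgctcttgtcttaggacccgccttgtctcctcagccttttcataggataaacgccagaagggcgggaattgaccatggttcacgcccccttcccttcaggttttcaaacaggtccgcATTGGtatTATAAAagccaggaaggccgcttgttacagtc

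Of these windows, H2bc18 holds the octamer beside CCAAT on both strands. H3c8 holds 3 copies of CCAAT and H3c13 holds 2, while H4c4 holds CCAAT on the opposite strand just upstream of TATAAA.

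Levels differed over more than 2 orders of magnitude among the genes. For 53 genes with an annotated interval of at most 1 kb, the level per kb of interval ran from 2.32 to 383 CPM per kb with a median of 102. H4c4 (383 CPM per kb over the 6 libraries), H2ac10 (374), H3c4 (316) and H2ac15 (296) stood highest. In controls these were 343 ± 144, 345 ± 60.9, 289 ± 78.5 and 270 ± 103 CPM per kb (SD, n = 3), so neighbours in this order did not differ beyond their spread. The class medians were 174 CPM per kb for H1, 170 for H3, 114 for H2A, 62.6 for H2B and 51.4 for H4. At the low end stood H2bc1 (2.32) and H2ac1 (3.44), a divergent pair known for testis forms of H2B and H2A, whose intervals overlap Gm33516. H4c11 (8.42) and H2ac21 (8.72) followed. Only 5 genes had a mean under 5 CPM, and the fewest counts in any library were 4. The intervals of H2bc4, H2bc6 and H2bc21 are longer than 1 kb, and that of H2bc6 overlaps Gm33387. Intervals and positions come from RefSeq on GRCm38.p6, in a table without exon structure.

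The level of nearly all histone genes followed the replicate number. Summed over the 56 genes, control replicates 1 to 3 stood at 4584, 2196 and 3866 CPM and depleted replicates 1 to 3 at 4366, 2480 and 5163 CPM. The replicate 2 libraries were thus the lowest of both groups and lay below all 4 others. Taken gene by gene, 52 of 56 (92.9%) were lowest in replicate 2 of both groups, against 25.7% of all tested genes, and 0 were highest there, against 23.8%. The exceptions were H1f2, H1f5, H2ac21 and H3c14. Relative to its own mean over the 6 libraries, the median gene stood at -0.81 in control replicate 2 and -0.69 in depleted replicate 2 on the log2 scale. It stood at 0.24, 0.060, 0.21 and 0.52 in control replicates 1 and 3 and depleted replicates 1 and 3.

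**Figure D1:**
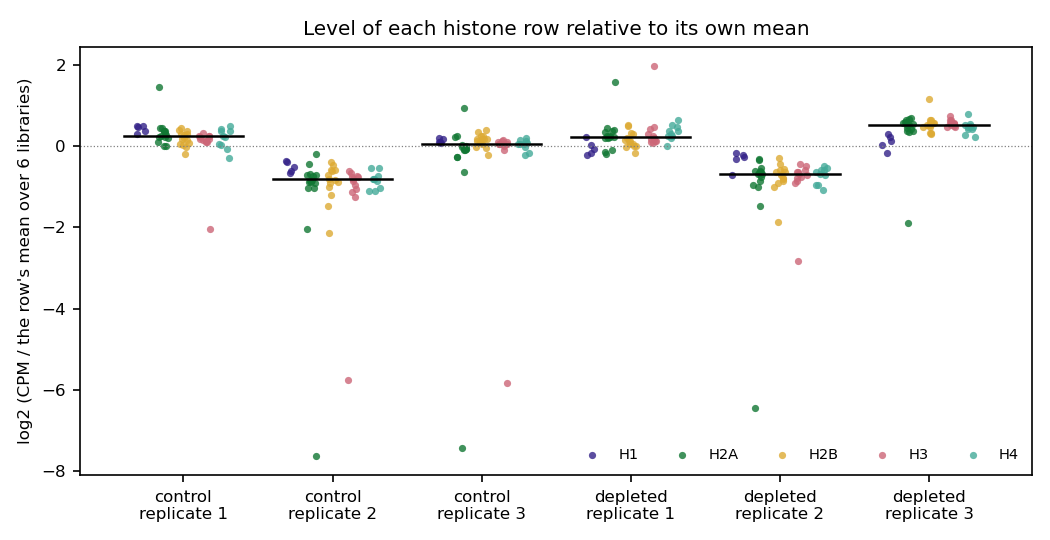
Each point is the log2 ratio of a histone gene's CPM in one library to its own mean over 6 libraries, coloured by class, and black bars are medians over the 56 genes. In replicate 2 of either group all 56 genes lie below 0. The H2A and H3 points at the bottom are H2ac18 and H3c14.

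Other lists were set beside the histone genes in replicate 2, by summed level and by the number of genes lowest there. The summed level of 42 S phase genes was 6696, 6160 and 6691 CPM in controls and 6892, 6852 and 7068 CPM in depleted libraries. Of these, 22 of 42 were lowest in replicate 2 of both groups, against 25.7% of all tested genes. Replication-independent histone variants summed to 1495, 1166 and 1340 CPM against 1445, 1394 and 1450 CPM, with 3 of 11 lowest there. Of 16 tested rows for RNAs that also lack a poly(A) tail, among which Terc and Rnu3b1 recur, 8 were lowest in replicate 2 of both groups. This share lay close to that of the S phase genes. The long Malat1 RNA was not, with 3550, 5248 and 4089 CPM in controls and 3586, 4040 and 3439 CPM in depleted libraries. The other 15 rows summed to 557, 300 and 468 CPM in controls and 711, 229 and 614 CPM in depleted libraries. The 4 of them with a mean of at least 10 CPM were each lowest in replicate 2 of both groups. Rn7sk (7SK RNA, which holds P-TEFb inactive) had 287, 129 and 223 against 403, 111 and 309 CPM, and Rn7s2 (a 7SL RNA of the signal recognition particle) had 86.1, 56.5 and 75.9 against 98.7, 41.9 and 107 CPM. Rn7s1, also among the 4, nearly repeated the values of Rn7s2, at 85.4, 54.9 and 75.6 against 103, 40.0 and 104 CPM. These examples were named after their values were seen. Protein-coding genes under 1 kb outside the histone set were lowest there in 37.7% of cases, those of 1 to 2 kb in 53.5%, those of 2 to 10 kb in 48.6% and those of 10 kb or more in 22.1%. Across all tested genes, the replicate 2 libraries stood at 83.48 (control) and 31.91 (depleted) on the first principal component (32.4% of the variance), with the other libraries below 0. What RNA capture, library preparation or cell cycle contributes to the low histone level of replicate 2 was not tested.

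With this spread between replicates, no histone gene passed the comparison of depleted with control libraries without pairing. edgeR called 0 of 56 higher and 0 lower at an adjusted p under 0.05, where it called 0.0114% of all tested genes higher and 0.780% lower. At an unadjusted p under 0.05 there were 1 higher (2.68% of all genes) and 0 lower (8.21%), and DESeq2 called 0 higher (0.353%) and 0 lower (3.29%), with 1 (3.90%) and 0 (8.71%) at an unadjusted p under 0.05. For 0 of 56 genes did all depleted libraries lie above all controls, against 6.94% of all genes, and for 0 below, against 11.8%. The summed level was 3549 ± 1225 CPM in controls and 4003 ± 1378 CPM in depleted libraries (SD, n = 3), a difference within the spread.

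Same-numbered libraries deviated together across all genes, and a fit with the replicate number as a block (the paired fit) called 6 of 56 histone genes higher (10.7%) and 0 lower. It called 4.96% of all genes higher and 7.90% lower. At an unadjusted p under 0.05 it held 15 higher (26.8%, against 13.3%) and 0 lower (against 14.6%). The 6 genes were H2bc18, H3c8, H3c13, H3c14, H3c15 and H4c4, and each was higher in the depleted library of all 3 pairs. Of all 56, 16 (28.6%) were higher in all 3 pairs, against 24.2% of all genes, and 1 (1.79%) was lower in all 3, against 24.1%. The count rested on the pairs included, with 9 higher without pair 1, 3 without pair 2 and 1 without pair 3. Calls over all genes, higher or lower, also fell, from 2259 with all pairs to 1418, 1428 and 949 in the same order.

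H2bc18, an H2B gene of the chromosome 3 cluster (ENSMUSG00000105827.1, 96269700 to 96270192), had 145, 50.8 and 100 CPM in the controls (replicates 1 to 3, as throughout) and 165, 71.2 and 171 CPM after IAA. Its groups overlapped, and the rise showed within each pair. The paired log2 fold change was 0.48 (with an SE of 0.106 and edgeR adjusted p = 0.0109), and without pair 3 it was 0.32 (edgeR adjusted p = 0.120). Its neighbour H3c13 (ENSMUSG00000074403.2, chromosome 3, 96268654 to 96269155), an H3 gene, had 48.1, 17.0 and 38.2 CPM in controls and 56.1, 26.7 and 57.2 CPM in depleted libraries. Again only the pairing separates the groups, with a paired log2 fold change of 0.48 (with an SE of 0.129 and edgeR adjusted p = 0.0284). H3c13 was not called without pair 2 (adjusted p = 0.103 in edgeR) or pair 3 (0.179).

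On chromosome 13, the H3 gene H3c8 (ENSMUSG00000099517.2, 23535418 to 23535909) had 151, 63.2 and 142 CPM in controls and 170, 85.8 and 218 CPM in depleted libraries. Its paired log2 fold change was 0.41 (with an SE of 0.0939 and edgeR adjusted p = 0.0134), and without pair 3 it was 0.29 (edgeR adjusted p = 0.140). The most abundant H4 gene, H4c4 (ENSMUSG00000061482.7, 23581568 to 23581969), had 180, 72.0 and 161 CPM in controls and 197, 106 and 207 CPM in depleted libraries. In both genes the depleted replicate 2 library stayed below every control of the other replicates. The paired log2 fold change of H4c4 was 0.34 (with an SE of 0.0911 and edgeR adjusted p = 0.0262), and it was not called without pair 2 (adjusted p = 0.126 in edgeR) or pair 3 (0.121). Without pairing it turned to -0.008 when control replicate 2 was left out.

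H3c14 stood apart from the other genes. It had 2.97, 0.228 and 0.217 CPM in controls and 48.0, 1.73 and 20.7 CPM in depleted libraries, from 78, 4 and 4 counts and from 1076, 38 and 306 counts. All depleted values were higher than the control of their pair, although depleted replicate 2 lay below control replicate 1. The paired log2 fold change was 4.50 (with an SE of 0.433 and edgeR adjusted p = 1.31e-04), and it was called without any one pair, at 3.85 to 5.17. Without pairing it was 4.28 (with an SE of 1.22 and edgeR adjusted p = 0.193). Its copy H3c15 had 95.8, 40.8 and 90.7 CPM in controls and 112, 51.3 and 117 CPM in depleted libraries. H3c15 rose by less, with a paired log2 fold change of 0.31 (with an SE of 0.0898 and edgeR adjusted p = 0.0413), and was not called without any one pair (adjusted p = 0.0930 to 0.219 in edgeR).

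The share of H3c14 in the counts of both copies was 3.005, 0.555 and 0.238% in controls and 29.96, 3.27 and 15.1% in depleted libraries, higher in the depleted library of each pair. In the second pair of copies, the share of H2ac18 was 61.5, 0.601 and 0.428% in controls and 62.0, 1.60 and 11.7% in depleted libraries. This share was also higher in the depleted library of each pair, by very little in replicate 1. H2ac18 had 153, 0.285 and 0.325 CPM in controls and 167, 0.639 and 15.0 CPM in depleted libraries, or 4012, 5 and 6 against 3745, 14 and 222 counts. It was abundant in both replicate 1 libraries and scarce in 3 of the other 4. H2ac19 had 95.6, 47.1 and 75.7 CPM against 102, 39.4 and 113 CPM, and did not drop where H2ac18 was high. Neither was called, at paired log2 fold changes of 1.31 (with an SE of 1.29 and edgeR adjusted p = 0.641) and 0.15 (with an SE of 0.132 and edgeR adjusted p = 0.525).

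**Figure D2:**
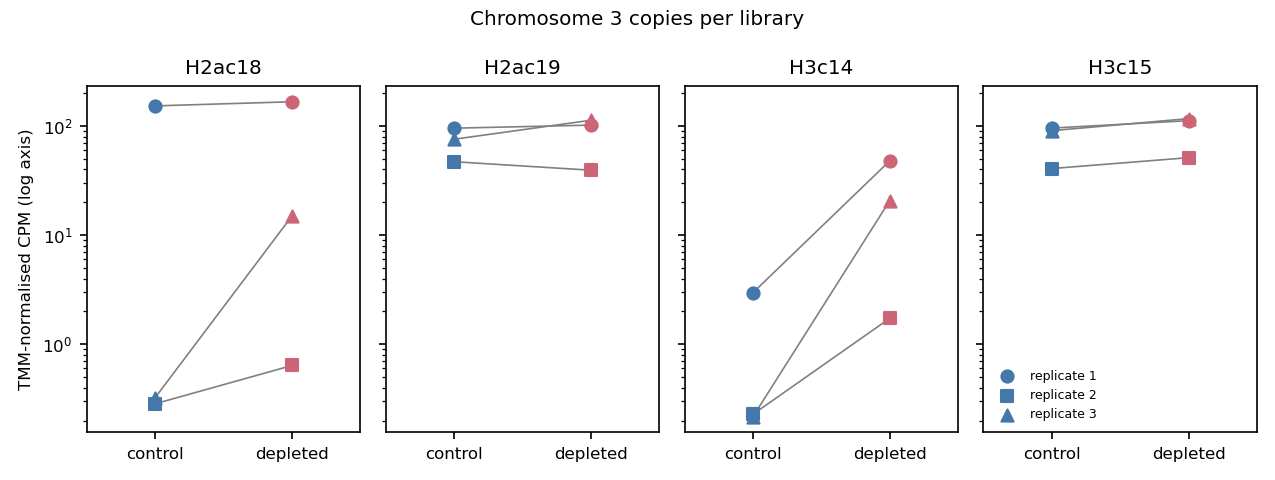
TMM-normalised CPM (log axis) of the 4 duplicated chromosome 3 genes in each library, with grey lines joining libraries of one replicate number. H2ac18 and H3c14 span over 2 orders of magnitude between libraries, while H2ac19 and H3c15 stay between 39.4 and 117 CPM.

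Near-identical copies can exchange reads in an estimate of this kind, so levels of single copies are uncertain and sums were fitted as well, a choice made after seeing the data. H3c14 and H3c15 together had 98.8, 41.0 and 90.9 CPM in controls and 160, 53.0 and 137 CPM in depleted libraries. The sum rose in the paired fit, by 0.56 on the log2 scale (with an SE of 0.0940 and edgeR adjusted p = 0.00222). H2ac18 and H2ac19 together had 248, 47.4 and 76.0 against 270, 40.0 and 128 CPM and were not called (paired log2 fold change 0.22, edgeR adjusted p = 0.465). With these sums in place of the copies, 5 of 54 features were called higher and 0 lower. That paired fit called 2262 of all 17571 features, higher or lower. Genes that RefSeq lists as synonyms of each other were also summed. The sum of all 10 H4 genes had 416, 187 and 368 CPM in controls and 440, 231 and 477 CPM in depleted libraries, and rose by 0.25 (with an SE of 0.0768 and edgeR adjusted p = 0.0465). The sum of 8 H3 genes (H3c2, H3c3, H3c4, H3c6, H3c7 and H3c13 to H3c15) had a paired log2 fold change of 0.26 (edgeR adjusted p = 0.0531), and that of H3c1, H3c8, H3c10 and H3c11 had 0.24 (edgeR adjusted p = 0.107). The H2B sums of H2bc4, H2bc6 and H2bc8 and of H2bc7, H2bc11, H2bc13 and H2bc15 had 0.15 and 0.14, with edgeR adjusted p of 0.291 and 0.388. Of 32 features after this summing, H2bc18 and the H4 sum were called, where the paired fit called 2276 of all 17549 features, higher or lower.

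By class, the 5 linker histone genes and the core histone genes lay on opposite sides of 0 in the fit without pairing. All 5 H1 genes had log2 fold changes below 0, from -0.20 to -0.11, with 0 called, while 45 of 51 core histone genes lay above 0, against 52.3% of all tested genes. Without control replicate 1, however, all 5 H1 genes lay above 0, and without control replicate 2 or without depleted replicate 3 only 22 of the 51 core genes did. The H1 sum was 850, 451 and 699 CPM in controls and 601, 502 and 703 CPM in depleted libraries, so that it was lower after IAA in the pair of replicate 1 only. H1 genes took 18.5, 20.5 and 18.1% of all histone CPM in controls and 13.8, 20.3 and 13.6% in depleted libraries. This share was lower in the depleted library of each pair, by very little in replicate 2, and the groups overlapped. The difference between linker and core genes was not tested.

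**Figure D3:**
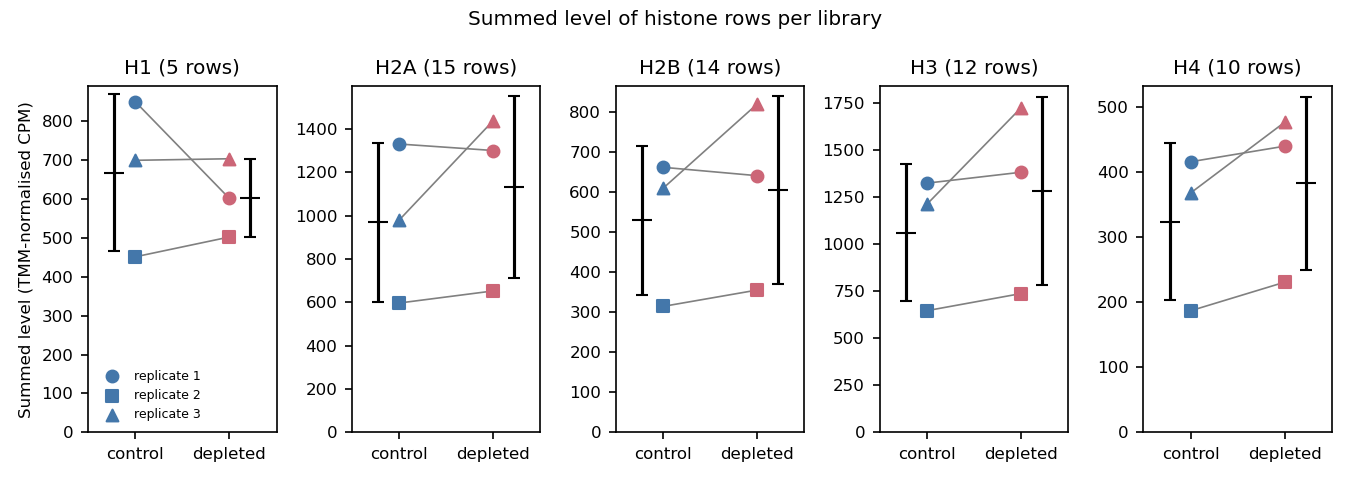
Summed TMM-normalised CPM of the histone genes of each class in control and depleted libraries, with replicate numbers joined by grey lines and black bars giving mean ± SD (n = 3). Replicate 2 is lowest in each panel, and the groups overlap in every class.

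Among the linker histones, H1f1 had 183, 81.4 and 150 CPM in controls and 123, 79.3 and 159 CPM in depleted libraries (paired log2 fold change -0.18 with an SE of 0.114, edgeR adjusted p = 0.348). H1f3 had 253, 126 and 190 against 183, 143 and 184 CPM, and H1f5 had 217, 136 and 199 against 152, 152 and 208 CPM. In these genes replicate 1 was lower after IAA, and the other pairs differed less. H1f3 and H1f5 had paired log2 fold changes of -0.12 and -0.10 (edgeR adjusted p = 0.536 and 0.620).

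Of the 15 H2A genes, 12 had a log2 fold change above 0, the median was 0.24, and 0 were called in either fit. H2ac10, the most abundant of them, had 191, 138 and 192 CPM in controls and 176, 153 and 283 CPM in depleted libraries. H2ac15 had 197, 87.1 and 149 against 188, 97.4 and 233 CPM, and H2ac4 had 134, 71.7 and 116 against 139, 75.8 and 168 CPM. Depleted replicate 3 was the highest library of each. Their paired log2 fold changes were 0.19, 0.24 and 0.22 with edgeR adjusted p of 0.269, 0.189 and 0.177. Without pair 1, H2ac14, H2ac18 and H2ac20 were called higher, together with H3c7 and 5 of the 6 genes above.

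Of the 14 H2B genes, 12 lay above 0 with a median of 0.15, and H2bc18 was the only one called. H2bc8, which is encoded opposite H2ac8, had 112, 75.4 and 128 CPM in controls and 115, 83.4 and 168 CPM in depleted libraries (paired log2 fold change 0.19, edgeR adjusted p = 0.204). H2bc12 had 84.7, 33.9 and 65.3 against 68.1, 31.1 and 92.4 CPM (0.020, edgeR adjusted p = 0.952). The lowest fold change of all 56 was that of H2bc6, at 21.8, 11.1 and 21.2 CPM in controls and 16.7, 9.22 and 20.6 CPM in depleted libraries. H2bc6 was the 1 gene lower in all 3 pairs, and it was not called (paired log2 fold change -0.23 with an SE of 0.172, edgeR adjusted p = 0.422). In 7 divergent H2A and H2B pairs with a window for both genes, the starts lie 164 to 281 bases apart (median 180). H2bc4, H2bc21 and H2ac14 had no window and are not among these pairs. Of the 7 pairs, both partners had log2 fold changes above 0 without pairing in 5, and partners of opposite sign stood in 2. The partners differed by 0.020 (H2ac11 at 0.19 and H2bc11 at 0.21) to 1.06 (H2ac1 at -0.16 and H2bc1 at 0.90).

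All 12 H3 genes had log2 fold changes above 0, from 0.11 to 4.28 with a median of 0.25, and 4 were called in the paired fit. The abundant H3c4 had 170, 99.9 and 166 CPM in controls and 169, 118 and 232 CPM in depleted libraries (paired log2 fold change 0.24, edgeR adjusted p = 0.126). H3c6 was higher in all 3 pairs, at 165, 86.9 and 153 against 171, 106 and 204 CPM (0.25, edgeR adjusted p = 0.0800). Of the 10 H4 genes, 9 lay above 0 with a median of 0.30, and H4c4 was called. H4c1 had 38.7, 22.5 and 38.9 CPM in controls and 46.1, 23.9 and 54.9 CPM in depleted libraries (paired log2 fold change 0.28, edgeR adjusted p = 0.179). H4c2 had 56.4, 29.9 and 45.2 against 51.6, 26.8 and 53.4 CPM and showed no such direction (-0.014, edgeR adjusted p = 0.962).

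**Figure D4:**
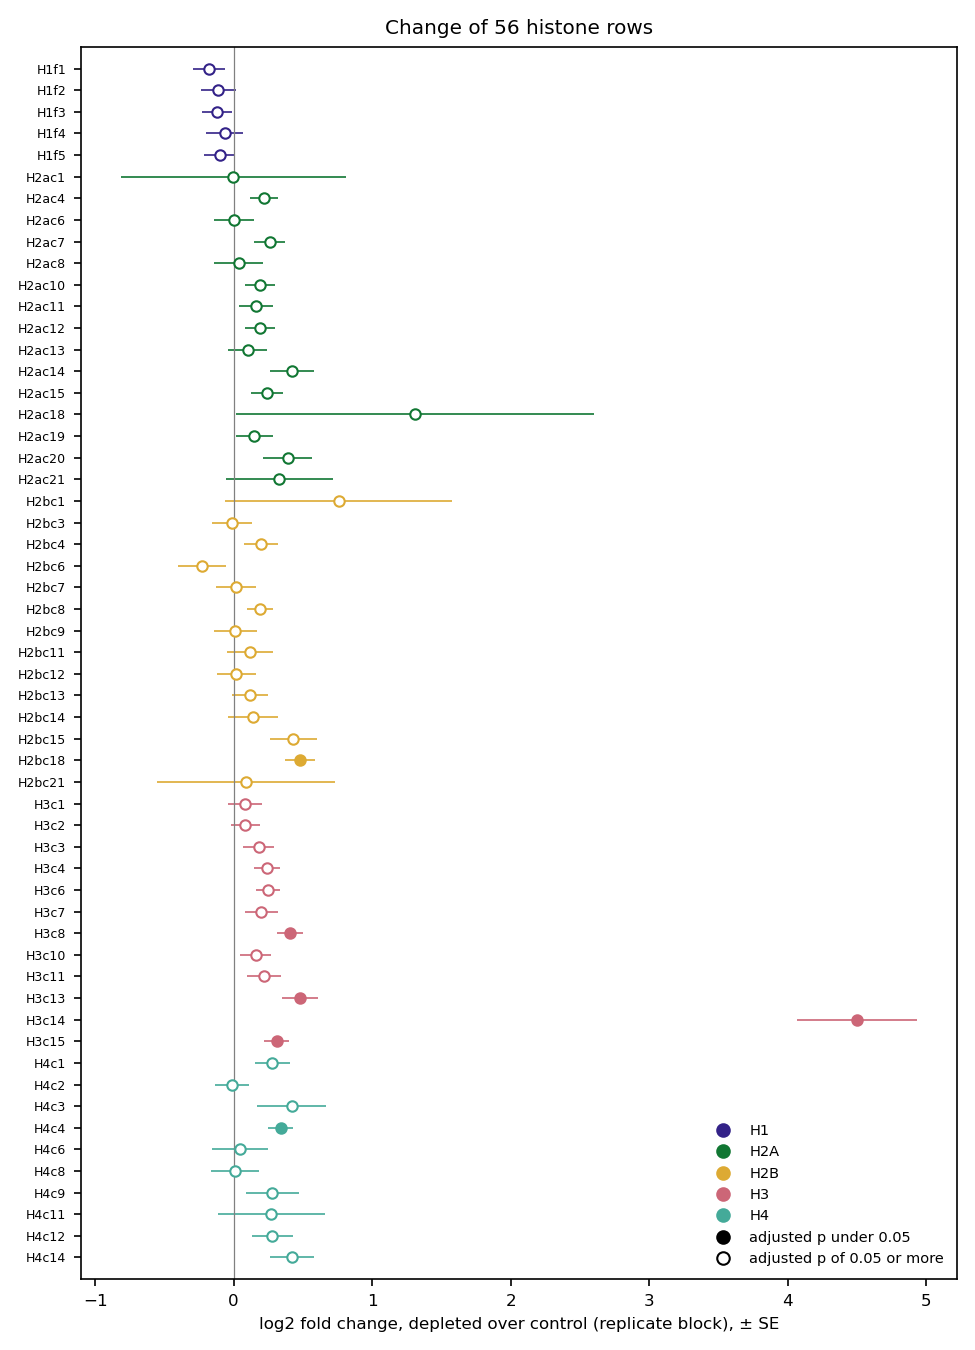
Paired log2 fold change (depleted over control) of each of the 56 histone genes with its standard error, coloured by class. Filled points are the 6 genes with an edgeR adjusted p under 0.05, H3c14 lies at 4.50, and all 5 H1 genes lie below 0 with all 3 pairs included and above 0 without pair 1.

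By location, the 10 genes of chromosome 3 had a median log2 fold change of 0.38, all above 0, and 4 were called in the paired fit (40.0%, against 4.96% of all genes called higher). Without H2ac18 and H3c14 the median stayed at 0.38 and 3 of 8 were called. The larger block of 30 genes on chromosome 13 had a median of 0.13 with 2 called (6.67%), and the 16 genes of the block nearer the chromosome's start had 0.22 with 0 called. Within pairs, the chromosome 3 sum changed 1.19-, 1.22- and 1.62-fold, against 0.909-, 1.15- and 1.27-fold for the larger chromosome 13 block. The difference between clusters was not tested.

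Over all 56 genes the median log2 fold change was 0.22 (0.19 with pairing), against 0.024 (0.018) over all tested genes. Other short genes lay at a like level, with medians of 0.21 for 53 protein-coding genes under 1 kb, 0.18 for 241 of 1 to 2 kb and 0.16 for 2878 of 2 to 10 kb, and -0.025 for 9823 of 10 kb or more. In the paired fit 9.43%, 5.81%, 8.69% and 5.33% of these classes, from the shortest to the longest, were called higher. Called lower were 0%, 1.66%, 3.23% and 11.6% in the same order, so genes under 1 kb, like the histone genes, had 0 lower calls. The histone genes spread less around their median, with the middle part (25th to 75th percentile) from 0.047 to 0.30, against -0.28 to 0.51 for the genes under 1 kb. Taken by pair, the histone median was -0.005, 0.16 and 0.48 (mean 0.21, SD 0.25), so the size of the shift differed between pairs by as much as the shift itself. The genes share libraries and sequence and are not independent replicates.

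**Figure D5:**
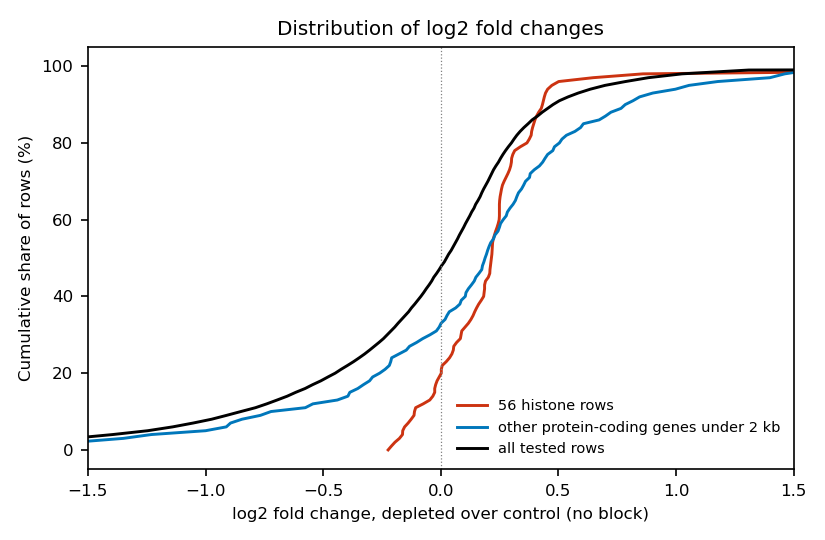
Cumulative share (%) of genes against log2 fold change without pairing, for the 56 histone genes, 294 other protein-coding genes under 2 kb and all 17573 tested genes. At a share of 50% the histone and short-gene lines lie near 0.2 and that of all genes near 0, and values beyond the plotted range are left out.

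A further 9 rows carry older histone symbols (Hist1h2 and Hist1h4 names) and fell outside the name rule. All 9 had log2 fold changes above 0, against 52.3% of all tested genes, with a median of 0.18. In replicate 2 of both groups 9 of 9 were lowest, against 25.7% of all tested genes. In either fit 0 were called, where the paired fit called 4.96% of all genes higher and 7.90% lower. They summed to 602, 268 and 511 CPM in controls and 546, 312 and 678 CPM in depleted libraries.

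Of 29 tested genes for the making and decay of histone mRNA, 5 rose (17.2%, against 4.96% of all genes) and 1 fell (3.45%, against 7.90%) in the paired fit, and 0 were called without pairing. Slbp, which encodes the stem-loop binding protein, had 191, 208 and 209 CPM in controls and 186, 251 and 181 CPM in depleted libraries (paired log2 fold change 0.010, edgeR adjusted p = 0.962). Npat, the coactivator of histone transcription, had 198, 264 and 205 against 216, 292 and 178 CPM (0.024, edgeR adjusted p = 0.901). Casp8ap2 had 188, 264 and 189 against 202, 265 and 193 CPM (0.048, edgeR adjusted p = 0.731). Both genes were highest in replicate 2, where the histone genes were lowest.

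The U7 snRNP gene Lsm11 had 18.6, 19.8 and 18.7 CPM in controls and 20.6, 16.2 and 17.1 CPM in depleted libraries (paired edgeR adjusted p = 0.792). Lsm10 had 9.23 ± 3.23 and 7.68 ± 0.485 CPM (SD, n = 3; paired edgeR adjusted p = 0.651). Zfp473, which encodes a zinc finger protein of the U7 processing complex, fell from 134, 120 and 130 CPM in controls to 109, 83.2 and 87.7 CPM. All its depleted libraries lay below all controls, and the paired log2 fold change was -0.46 (with an SE of 0.0894 and edgeR adjusted p = 0.00516). Ncbp2, a cap-binding subunit, rose from 71.2, 50.0 and 56.6 to 97.9, 95.1 and 82.2 CPM, again without overlap (paired log2 fold change 0.64 with an SE of 0.108, edgeR adjusted p = 0.00229). The transcription elongation kinase gene Cdk9 rose 1.37-fold (edgeR adjusted p = 0.00279) and the Sm protein gene Snrpe 1.39-fold (0.00976), both in the paired fit. The other 2 that rose, named after their values were seen, were the decay genes Upf1 and Eri1, an exonuclease that trims the histone stem-loop.

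Of 11 replication-independent variants, 2 rose in the paired fit (18.2%, against 4.96% of all genes) and 0 fell. H2ax, the variant phosphorylated at DNA breaks, had 188, 90.4 and 139 CPM in controls and 205, 149 and 205 CPM in depleted libraries (paired log2 fold change 0.47 with an SE of 0.104, edgeR adjusted p = 0.0118). H2aj had 42.0, 21.3 and 27.6 against 57.5, 39.2 and 34.3 CPM (0.55 with an SE of 0.139, edgeR adjusted p = 0.0221). Like the replication-dependent genes, H2ax was lowest in replicate 2 of both groups. With a pair left out, 0 or 1 of the variants was called, against 949 to 1428 of all 17467 to 18022 tested genes, higher or lower.

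In the paired fit 8 of 42 S phase genes rose (against 4.96% of all genes) and 4 fell (against 7.90%), with a median log2 fold change of 0.048 without pairing. Pcna, the replication clamp, rose 1.28-fold (edgeR adjusted p = 0.00631), and E2f2, an E2F transcription factor gene, had a paired log2 fold change of 0.58 (0.00710). Rfc1 and Rfc4, subunits of the clamp loader, fell to 0.649 (edgeR adjusted p = 6.04e-04) and 0.601 (0.00941) of the control level. Rfc1 had 121, 137 and 129 CPM in controls and 84.3, 88.5 and 78.7 CPM in depleted libraries, with no overlap. With a pair left out, 4 to 6 of the 42 were called, against 949 to 1428 of all 17467 to 18022 tested genes, higher or lower.

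Other genes without introns also lay mostly above 0, with 24 of 26 above it (92.3%, against 52.3% of all genes) and a median of 0.39. Some were scarce, with Cebpa, Cebpb, Pou3f3 and Sox3 at control means of 0.304 to 0.829 CPM. The log2 ratio of the whole list's summed level was 0.13, against 0.17 for the histone genes. In the paired fit 2 rose (7.69%, against 4.96% of all genes). These were the heat shock gene Hspa1b, at 6.89, 5.63 and 10.9 CPM in controls and 21.2, 10.8 and 18.5 CPM in depleted libraries (paired log2 fold change 1.11 with an SE of 0.222, edgeR adjusted p = 0.00625), and the AP-1 gene Jund, which rose 1.53-fold (edgeR adjusted p = 0.0395). Without pair 1, 0 of the 26 were called, against 1418 of all 17467 tested genes, higher or lower. Of 16 rows for RNAs without a poly(A) tail, 0 were called with all pairs, against 4.96% of all genes higher and 7.90% lower. At an unadjusted p under 0.05 in the paired edgeR fit there was 1, against 13.3% of all genes higher and 14.6% lower. With a pair left out, up to 2 were called, against 949 to 1428 of all 17467 to 18022 tested genes.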

How the data were processed

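Labelled RNA was measured in 3 control and 3 depleted libraries. The authors deposited estimated counts per gene as whole numbers, and HISAT2 2.2.1, StringTie 2.2.1, DESeq2 1.42.0 and build mm10 are named, with no role stated, in the submitters' processing notes. How reads shared by copies were counted is not given in the sources used here, and reads of overlapping or antisense genes cannot be told apart.

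Counts were fitted over all genes with edgeR 4.0.16 in R 4.3.3 (filterByExpr, TMM, robust quasi-likelihood test, Benjamini-Hochberg adjusted p under 0.05). The fit without a block, but not the blocked fit, was tried on simulated counts that held no replicate effect. The planned fit had no block. Deviations from group means correlated at 0.268, 0.387 and 0.321 between libraries of the same number in the labels and at -0.265 to -0.025 otherwise, so the numbers were taken to pair libraries and the blocked fit is given beside it. Replicates are named independent by the series design, with no statement on separate cultures, so p-values cover only the spread among these 6 libraries, which may be technical. The members and lists were chosen with earlier results of these data known. Values per library are given for the 3 most abundant genes of each class, called genes, the extremes of fold change and, from each list, up to 4 called genes, with 6 processing genes in any case. Lengths and promoters are RefSeq's. The alternatives were other scaling, DESeq2 1.42.0, no filter on low counts, libraries or pairs left out and summed copies.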

Additional observations from a re-analysis of the deposited data

How the results depend on the processing

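The replicate block decided the calls of single genes. Without it, 0 histone genes were called higher or lower under RLE size factors, upper-quartile scaling, DESeq2, no filter on low counts, summed copies or any library left out. With the replicate block 6 were higher, 5 with the chromosome 3 copies summed, 2 with all synonym copies summed, and 1 to 9 with a pair left out. Over all genes, the block called 2259 higher or lower, and 949 to 1428 with a pair left out. The median log2 fold change ranged from -0.066 (without depleted replicate 3) to 0.47 (without depleted replicate 2) without the block, and from 0.020 to 0.29 with a pair left out. The log2 ratio of summed levels, with a library left out, ranged from -0.079 to 0.43 for all genes (0.17 with all libraries), from -0.36 to 0.075 for H1 (-0.15), from -0.032 to 0.53 for H2A (0.22), from -0.081 to 0.47 for H2B (0.20), from 0.005 to 0.55 for H3 (0.27) and from -0.034 to 0.51 for H4 (0.24). Without both replicate 2 libraries the ratio for all genes was 0.17. The summed copies and the omission of both replicate 2 libraries were chosen after seeing the data.

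In the lists, the block called 2 variants (0 to 1 with a pair left out), 6 processing genes (3 to 7), 3 chaperones (1 to 3), 12 S phase genes (4 to 6), 6 mitosis genes (1 to 6), 2 other genes without introns (0 to 2) and 0 RNAs without a poly(A) tail (0 to 2). These counts hold calls in both directions. Of all 17573 genes the block called 2259 in both directions with all pairs, and 949 to 1428 genes were called with a pair left out. DESeq2 without the block called 1 processing gene and 1 S phase gene, against 641 of all 17573 genes. For 19 named histone genes, 270 of 316 comparisons kept direction and call, 20 passed only under the alternative and 26 changed sign, none of these with a call (adjusted p of at least 0.343). The sign changes were in 12 genes, nearly all with a library or pair left out, where log2 fold changes ranged from -0.47 to 0.071 (H1f1), -0.39 to 0.11 (H1f3), -0.29 to 0.11 (H1f5), -0.082 to 0.40 (H2ac10), -0.016 to 0.56 (H2ac15), -0.48 to 0.044 (H2bc6), -0.087 to 0.43 (H2bc8), -0.30 to 0.39 (H2bc12), -0.018 to 0.46 (H3c4), -0.000 to 0.59 (H3c15), -0.21 to 0.26 (H4c2) and -0.008 to 0.56 (H4c4). H4c2, at 0.002, also turned with the replicate block (-0.014, with chromosome 3 copies summed too) and with no filter on low counts (-0.005). The causes were not tested. Sums over identical proteins were not run because no protein table was used here. Depth limits H2bc1 and H2ac1, and H3c14 and H2ac18 in control replicates 2 and 3, where each had 4 to 6 counts.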

Other observations

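Of 23 histone chaperone genes, 3 rose and 0 fell in the paired edgeR fit, which called 4.96% of all genes higher and 7.90% lower, and 17 (73.9%) had a log2 fold change above 0 without pairing, against 52.3% of all genes. Ipo4, an importin for newly made H3 and H4, had 101, 85.1 and 96.6 CPM in controls and 131, 109 and 127 CPM in depleted libraries, with no overlap (paired log2 fold change 0.37 with an SE of 0.0827, edgeR adjusted p = 0.0110). Nap1l1, an H2A and H2B chaperone, rose 1.23-fold (edgeR adjusted p = 0.0113) and Mcm2, a helicase subunit that binds H3 and H4, rose 1.24-fold (0.0134).

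In the paired fit 4 of 25 mitosis genes rose (against 4.96% of all genes) and 2 fell (against 7.90%). Nusap1, a spindle microtubule protein, had 90.0, 122 and 93.6 CPM in controls and 67.2, 81.5 and 57.1 CPM in depleted libraries, and fell to 0.674 of the control level (edgeR adjusted p = 0.00207). The mitotic kinase gene Plk1 rose 1.26-fold (edgeR adjusted p = 0.0148), the ubiquitin-conjugating enzyme gene Ube2c 1.30-fold (0.0232) and the proliferation marker Mki67 1.27-fold (0.0252).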
